A study of Mus musculus with 8 samples.

Results

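The globin and red cell genes were 7 genes of the embryonic mouse: the embryonic beta-type globins Hbb-bh1 and Hbb-y, the embryonic alpha-type globin Hba-x, the adult alpha-globins Hba-a1 and Hba-a2, the erythroid heme enzyme Alas2 and the red cell anion exchanger Slc4a1. They were taken as every row of the array table whose platform annotation names a member, with the row of highest mean used for each symbol. In all, 7 rows named a member, among 65956 transcript clusters of the array, and they reduced to 6 distinct rows. Hba-a1 and Hba-a2 were named together on both of their rows, so the arrays do not separate the 2 genes, and the other 5 genes each had a row of their own.

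RNA from whole spinal cords of mouse embryos at E14.5 was measured on 8 Affymetrix Mouse Transcriptome Arrays, 4 from Nfix-/- embryos and 4 from Nfix+/+ embryos, labelled as biological replicates 1 to 4 of each genotype. The study's abstract states fewer embryos per genotype than the labels do, and the labels were followed. The parents were heterozygous mice on a C57Bl/6J background, the Nfix+/+ embryos were littermates, and no embryo received a treatment. NFIX is a transcription factor of the Nuclear Factor One (NFI) family. The part of Nfix that the allele lacks, the sex of the embryos and any washing of blood from the tissue are not given in the sources used here. Since the mutants came from heterozygous parents, the allele is carried by blood cells as well as by neural cells.

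Values are log2 signals, 1 per transcript cluster and array, and every difference below is Nfix-/- minus Nfix+/+ on that scale. The comparison asks whether the spinal cord of embryos without NFIX differs in red cell transcripts, and whether the embryonic globins shift against the adult ones. Adjusted p-values come from limma over all 65956 clusters with Benjamini-Hochberg correction, and a change was called at an adjusted p below 0.05. The cords of 4 against 4 embryos allow 70 splits, so that the exact two-sided permutation test cannot go below p = 0.0286.

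Hemoglobin joins alpha-type and beta-type globin chains around heme. In the mouse, primitive red cells from the yolk sac make the embryonic chains, with Hbb-bh1 used before Hbb-y and Hba-x before the adult alpha-globins, while definitive red cells from the fetal liver make adult chains. The spinal cord makes no red cells of its own, and globin RNA in dissected cord can come with blood in its vessels and coverings. The cells that gave the globin RNA were not identified here. In bulk tissue, fewer red cells and less RNA per red cell cannot be told apart.

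The members lie in clusters on the mouse genome (RefSeq positions, GRCm38.p6). Hba-x (chr11:32276600-32278116), Hba-a1 (chr11:32283672-32284486) and Hba-a2 (chr11:32296492-32297310) stand with the theta globins Hbq1b and Hbq1a within 24.3 kb of chromosome 11. Hbb-bh1 (chr7:103841638-103843162) and Hbb-y (chr7:103851754-103853207) share 40.7 kb of chromosome 7 with the adult genes Hbb-bt and Hbb-bs. Slc4a1 lies elsewhere on chromosome 11 (chr11:102348820-102365281) and Alas2 on the X chromosome (chrX:150547417-150570622).

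Promoter windows of 300 bases, from 250 before the annotated start to 50 after it, are shown for an embryonic and an adult globin of each type and for Alas2, because the comparison of these genes is the one the values below turn on. They are RefSeq sequences of build GRCm38.p6. The windows are chr7:103853158-103853457 on the minus strand for Hbb-y, chr7:103827879-103828178 on the minus strand for Hbb-bs, chr11:32276350-32276649 on the plus strand for Hba-x, chr11:32283422-32283721 on the plus strand for Hba-a1, and chrX:150547167-150547466 on the plus strand for Alas2. Capitals mark matches, on either strand, to GATA with A or T before it and A or G after it, to the letters CACCC of the KLF proteins, to the general promoter letters CCAAT, to the core letters TTGGC bound by NFI proteins, and to the start-site letters TATAA.
Hbb-y: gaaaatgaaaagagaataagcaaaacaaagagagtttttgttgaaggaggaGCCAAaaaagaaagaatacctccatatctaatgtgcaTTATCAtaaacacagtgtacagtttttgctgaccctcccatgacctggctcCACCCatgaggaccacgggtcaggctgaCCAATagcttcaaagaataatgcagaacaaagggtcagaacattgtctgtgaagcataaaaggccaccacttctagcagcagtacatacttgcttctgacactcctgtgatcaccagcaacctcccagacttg
Hbb-bs: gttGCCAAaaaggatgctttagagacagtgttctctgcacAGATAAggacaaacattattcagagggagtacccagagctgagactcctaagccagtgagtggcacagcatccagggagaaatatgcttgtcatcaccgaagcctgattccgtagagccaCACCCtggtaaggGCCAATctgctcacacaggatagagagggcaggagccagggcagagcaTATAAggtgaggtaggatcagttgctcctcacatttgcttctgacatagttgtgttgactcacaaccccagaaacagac
Hba-x: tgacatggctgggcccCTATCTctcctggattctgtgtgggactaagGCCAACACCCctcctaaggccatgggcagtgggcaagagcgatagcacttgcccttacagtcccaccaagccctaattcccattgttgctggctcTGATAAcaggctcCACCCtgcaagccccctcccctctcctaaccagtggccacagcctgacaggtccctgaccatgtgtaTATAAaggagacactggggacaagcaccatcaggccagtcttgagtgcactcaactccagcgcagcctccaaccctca
Hba-a1: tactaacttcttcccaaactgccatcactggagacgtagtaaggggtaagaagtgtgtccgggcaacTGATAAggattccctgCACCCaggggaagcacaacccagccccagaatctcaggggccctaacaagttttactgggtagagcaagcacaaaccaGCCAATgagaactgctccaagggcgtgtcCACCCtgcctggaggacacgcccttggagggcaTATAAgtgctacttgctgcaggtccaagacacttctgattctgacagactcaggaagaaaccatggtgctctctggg
Alas2: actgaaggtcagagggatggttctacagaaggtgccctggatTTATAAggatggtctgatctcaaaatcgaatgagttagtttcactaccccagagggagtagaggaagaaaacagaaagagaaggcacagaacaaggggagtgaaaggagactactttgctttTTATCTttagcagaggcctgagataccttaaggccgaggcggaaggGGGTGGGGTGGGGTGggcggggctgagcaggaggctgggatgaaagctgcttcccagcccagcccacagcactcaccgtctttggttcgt

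Of 32851 promoter windows of this length, 29.8% held a match to the GATA letters, bound by erythroid GATA factors, and 57.5% one to CACCC. All 5 windows shown held both, which depends on the windows chosen. Of those not shown, Hba-a2 held both as well. Hbb-bt, the other adult beta-globin, held 3 CACCC matches and 0 GATA matches. Hbq1a and Hbq1b held 0 of each, and Hbb-bh2 held 1 GATA match and 0 CACCC matches. CCAAT, present in 37.4% of windows, was found in Hbb-y, Hbb-bs and Hba-a1 but in neither Hba-x nor Alas2. TATAA, present in 24.9%, was found in Hbb-bs, Hba-x, Hba-a1 and Alas2 and not in Hbb-y. Its first base lay at -29, -28 and -27 from the start in these 3 globin windows. In Alas2 it lay far from the start, at -208 and -207. TTGGC, present in 46.7%, was found in the 4 globin windows and not in Alas2. In Hbb-bs and Hba-a1 a TTGGC match on the minus strand overlaps the CCAAT match, as the letters GCCAAT. In Hbb-y the TTGGC match stands apart from CCAAT, and in Hba-x, which has no CCAAT match, it directly adjoins a CACCC match. The windows of Hba-a1 and Hba-a2 were identical over 297 overlapping bases, with 0 mismatches at an offset of 3 bases, whereas those of Hba-a1 and Hba-x shared 29.3% of their bases. A match of letters is a description of these windows and does not show binding. Of the 7 members, 5 were matched in the promoter table.

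The arrays were checked first. Nfix itself measured 8.90, 8.88, 8.83 and 8.81 in Nfix-/- replicates 1 to 4 and 9.36, 9.18, 9.25 and 9.19 in Nfix+/+ replicates 1 to 4, a difference of -0.39 (adjusted p = 0.00240, limma). It was lower on every Nfix-/- array, as the labels say, and all 6 neuron markers listed (Tubb3, Map2, Elavl3, Elavl4, Stmn2 and Snap25) were above the 95th percentile of the array's 5222 negative controls on 8 of 8 arrays. Nfix+/+ replicate 2 stood apart, with the highest negative-control median (4.88, against 4.33 to 4.60 elsewhere). The median of the positive controls did not overlap between genotypes, at 8.72 to 8.74 on the Nfix-/- arrays and 8.60 to 8.68 on the Nfix+/+ arrays. Over all clusters, 7602 rose (11.5%) and 6918 fell (10.5%). With a fold above 1.5 as well, 2.05% of clusters were called, 522 of them risen and 829 fallen, and quantile normalization gave 652 and 661. At both thresholds fewer clusters rose than fell, the reverse of the balance the study gives, with the counts of both directions nearly exchanged. The median difference was 0.02 over all clusters and 0.09 over the 11778 clusters above the negative-control percentile on at least 4 arrays.

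No member row passed the test between genotypes: 0 of the 6 were past the adjusted threshold, against 22.0% of all clusters. None of the 6 had an unadjusted limma p below 0.05 (36.7% of all clusters did), and the methods' unpaired test also called 0. The 4 values of each genotype overlapped for all 6 rows, against 28.1% of clusters whose genotypes did not overlap. The median difference of the 6 rows was 0.03. Hbb-y, Hba-x and the Hba-a1/Hba-a2 row were above the negative-control percentile on all 8 arrays. The rows of Hbb-bh1, Alas2 and Slc4a1 were above it on 0 arrays, so that their signals fell among those of the negative controls. Alas2 (6.48 to 6.90) and Slc4a1 (6.52 to 6.84) were nevertheless above the negative-control medians, which were 4.33 to 4.88.

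**Figure D1:**
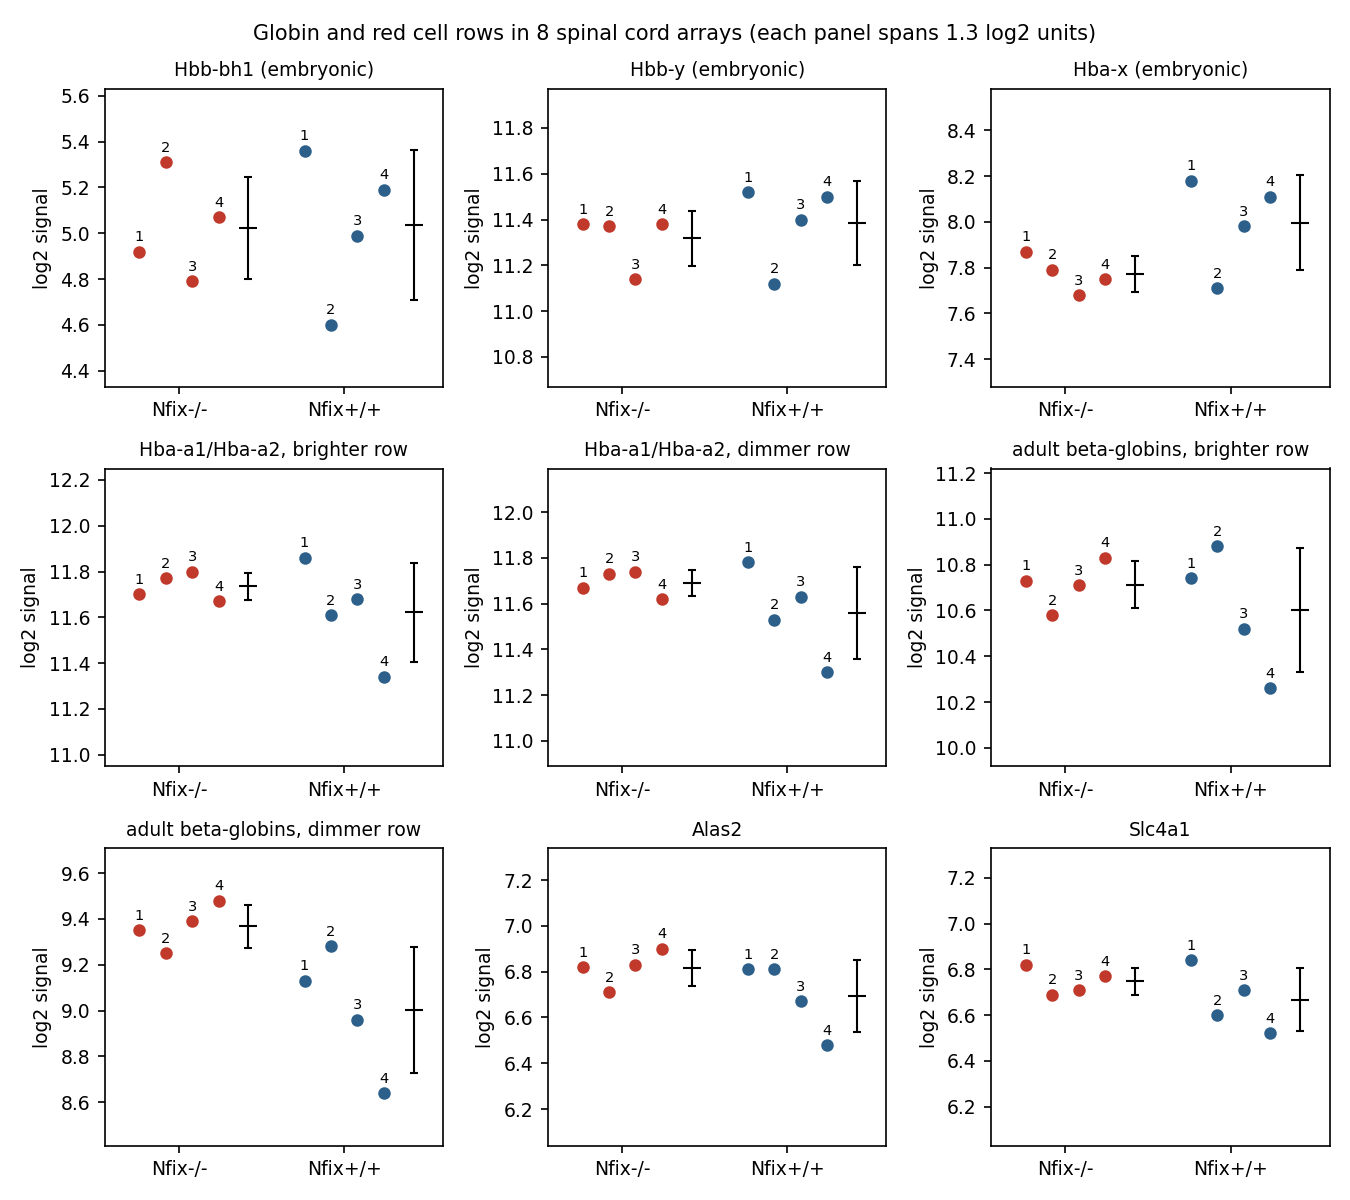
Log2 signal (vertical axis) of each row naming a member and of the 2 adult beta-globin rows on the 4 Nfix-/- and the 4 Nfix+/+ arrays, with each point an array (replicate number above it) and the bar the genotype mean with its SD. The genotypes overlap in every panel, and the Nfix+/+ arrays are the more spread ones.

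Among the embryonic globins, Hbb-y, the late beta-type chain of primitive red cells, measured 11.38, 11.37, 11.14 and 11.38 in Nfix-/- replicates 1 to 4 and 11.52, 11.12, 11.40 and 11.50 in Nfix+/+ replicates 1 to 4. In each genotype 1 array was low, replicate 3 of Nfix-/- and replicate 2 of Nfix+/+, and the genotypes overlapped. The means were 11.32 ± 0.119 and 11.38 ± 0.184 (SD, n = 4 each), and the difference was -0.06 with a 95% confidence interval of -0.29 to 0.16 (adjusted p = 0.687, limma). The interval thus leaves room for a lower or a slightly higher level.

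Hba-x, the zeta-like chain that pairs with embryonic beta-type chains, showed the difference nearest to the threshold among the members. It measured 7.87, 7.79, 7.68 and 7.75 in Nfix-/- replicates 1 to 4 and 8.18, 7.71, 7.98 and 8.11 in Nfix+/+ replicates 1 to 4. Nfix+/+ replicates 1, 3 and 4 were above every Nfix-/- array, and Nfix+/+ replicate 2 fell inside the Nfix-/- range. The difference was -0.22 (SE 0.0993, 95% confidence interval -0.45 to 0.005), a signal 0.857 times that of Nfix+/+, with an unadjusted limma p of 0.0541 and an adjusted p of 0.143. The exact permutation test gave p = 0.114. Without Nfix+/+ replicate 2 the difference was -0.32 and passed the threshold (limma adjusted p = 0.0150), and with arrays weighted by their fit it was -0.30 (adjusted p = 0.0210). It was smaller without Nfix+/+ replicate 1 (-0.16, limma adjusted p = 0.295) and without Nfix+/+ replicate 4 (-0.18, adjusted p = 0.293). No relation of Hba-x with the positive-control median passed the test (Pearson's r = -0.46, exact permutation p = 0.251, Spearman's rho = -0.24, p = 0.582, 8 arrays, adjusted p = 0.777 over 45 relations with array measures), and without Nfix+/+ replicate 2 this r was -0.91. The part of the positive controls in the Hba-x difference was not tested.

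Hbb-bh1, the early beta-type embryonic chain, lay at 4.79 to 5.31 on the Nfix-/- arrays and 4.60 to 5.36 on the Nfix+/+ arrays. Its lowest and its highest array were both Nfix+/+, replicates 2 and 1. The difference was -0.02 (95% confidence interval -0.41 to 0.37, limma adjusted p = 0.958), and its sign turned under median scaling, quantile normalization and cyclic loess (0.01 in each). At this signal a change in Hbb-bh1 was not detectable.

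The adult alpha-globins, which follow Hba-x in primitive red cells and are also made by definitive ones, did not pass the test. The brighter row naming Hba-a1 and Hba-a2 measured 11.70, 11.77, 11.80 and 11.67 in Nfix-/- replicates 1 to 4 and 11.86, 11.61, 11.68 and 11.34 in Nfix+/+ replicates 1 to 4. The 4 Nfix-/- arrays lay within 0.13 of each other and inside the range of the Nfix+/+ arrays, which held both the highest and the lowest value. The difference was 0.11 (95% confidence interval -0.12 to 0.35, limma adjusted p = 0.462), and it was -0.01 after quantile normalization and -0.02 after cyclic loess. Without Nfix+/+ replicate 4 it was 0.02, and without Nfix+/+ replicate 1 it was 0.19. The dimmer row of the same 2 genes differed by 0.13 (adjusted p = 0.353), and the brighter row exceeded it by only 0.03 to 0.08 on 8 of 8 arrays, with r = 0.993 between them.

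Alas2, the first enzyme of heme synthesis in red cells, measured 6.82, 6.71, 6.83 and 6.90 in Nfix-/- replicates 1 to 4 and 6.81, 6.81, 6.67 and 6.48 in Nfix+/+ replicates 1 to 4. Nfix-/- replicates 1, 3 and 4 were above every Nfix+/+ array and Nfix+/+ replicate 4 was the lowest. The difference was 0.125 (SE 0.0818, 95% confidence interval -0.06 to 0.31, limma adjusted p = 0.307). Alas2 is X-linked, and with the signal of 3 Y-linked genes held constant in the fit the difference was 0.16 (adjusted p = 0.282).

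Slc4a1, known as band 3, exchanges chloride and bicarbonate across the red cell membrane. It measured 6.82, 6.69, 6.71 and 6.77 in Nfix-/- replicates 1 to 4 and 6.84, 6.60, 6.71 and 6.52 in Nfix+/+ replicates 1 to 4. Here too Nfix+/+ held the highest and the lowest array. The difference was 0.08 (95% confidence interval -0.09 to 0.25, limma adjusted p = 0.477).

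All 7 rows naming a member had a larger SD among the Nfix+/+ arrays than among the Nfix-/- arrays, against 54.2% of all clusters. This count was chosen after its values were seen and the rows share arrays, so it is given as a description. The arrays behind it were not the same for every gene: Nfix+/+ replicate 2 was low for the embryonic globins, and Nfix+/+ replicate 4 for the adult globins, Alas2 and Slc4a1.

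**Figure D2:**
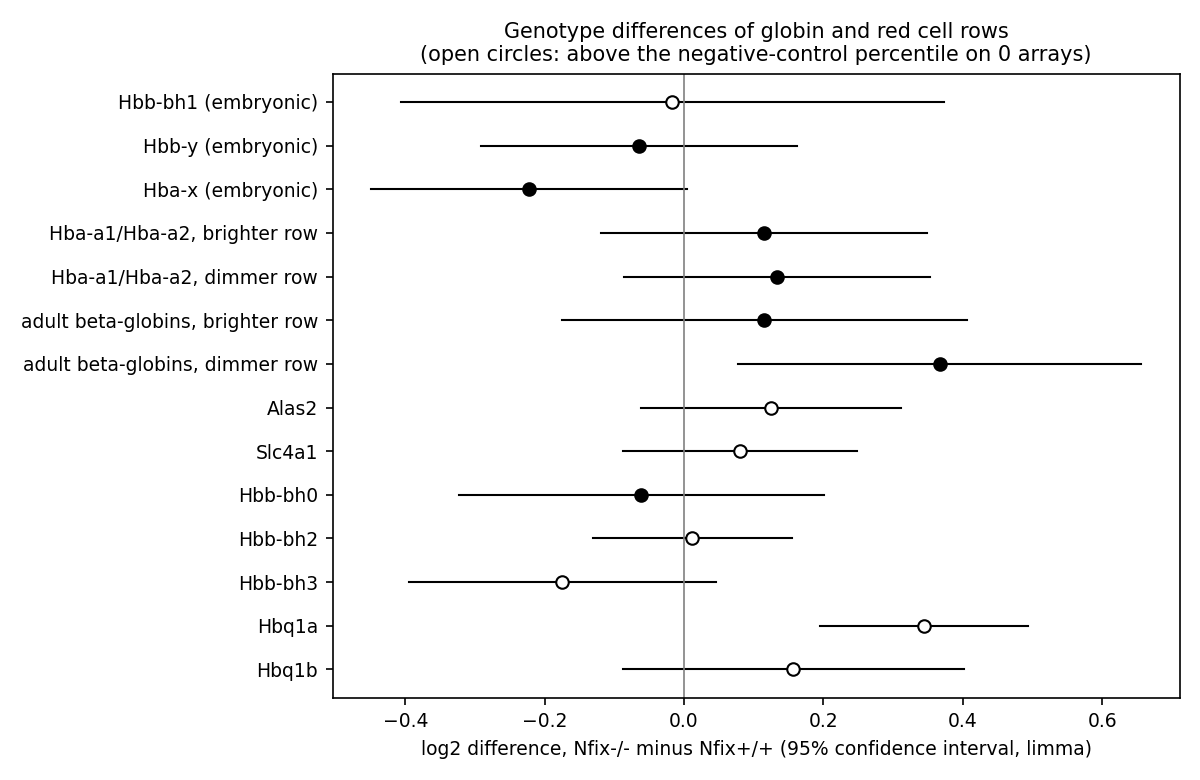
Log2 difference between genotypes (horizontal axis, Nfix-/- minus Nfix+/+) for the member rows and the other globin rows, with 95% confidence intervals from limma. The intervals of all member rows cross 0, those of the dimmer adult beta-globin row and of Hbq1a do not, and open circles are rows above the negative-control percentile on 0 arrays.

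The other genes of the globin clusters were read beside the members. The adult beta-globins Hbb-b1, Hbb-b2, Hbb-bs and Hbb-bt, the beta chains of definitive red cells, shared 2 rows that each name all 4 genes. The brighter row measured 10.73, 10.58, 10.71 and 10.83 in Nfix-/- replicates 1 to 4 and 10.74, 10.88, 10.52 and 10.26 in Nfix+/+ replicates 1 to 4, with a difference of 0.12 (SE 0.127, limma adjusted p = 0.558) that was -0.01 after cyclic loess. The genotypes overlapped, with Nfix+/+ replicates 2 and 4 at the extremes. The difference was 0.0035 without Nfix+/+ replicate 4 and 0.21 without Nfix+/+ replicate 2. The dimmer row measured 9.35, 9.25, 9.39 and 9.48 in Nfix-/- replicates 1 to 4 and 9.13, 9.28, 8.96 and 8.64 in Nfix+/+ replicates 1 to 4. Its difference was 0.37 (SE 0.127, 95% confidence interval 0.08 to 0.66), with an adjusted p of 0.0713 in limma and an exact permutation p of 0.0571. It passed the threshold without Nfix+/+ replicate 2 (0.46, limma adjusted p = 0.0240), with array weights (0.42, adjusted p = 0.0283), with median scaling (0.40, adjusted p = 0.0405) and over named rows only (0.37, adjusted p = 0.0486). It was smaller after quantile normalization (0.26, adjusted p = 0.185), after cyclic loess (0.26, adjusted p = 0.184) and without Nfix+/+ replicate 4 (0.25, adjusted p = 0.107), and the adjusted p was 0.137 with the replicate number as a block and 0.128 by the methods' test. The 2 rows name the same genes and correlated at r = 0.877 over 8 arrays, and their differences are not the same size.

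Hbb-bh0, a pseudogene of the embryonic beta type, measured 8.50, 8.46, 8.20 and 8.50 in Nfix-/- replicates 1 to 4 and 8.66, 8.17, 8.54 and 8.55 in Nfix+/+ replicates 1 to 4. The low arrays were again Nfix-/- replicate 3 and Nfix+/+ replicate 2, and the difference was -0.06 (limma adjusted p = 0.745). The rows of Hbb-bh2 (0.01), Hbb-bh3 (-0.17) and the alpha pseudogene Hba-ps4 (-0.23) did not pass the threshold (adjusted p = 0.915, 0.227 and 0.183, limma). Over the 6 embryonic globin rows 0 passed, with 0 at an unadjusted p below 0.05 and 0 by the methods' test, and their median difference was -0.06. Of these rows, 3 (Hbb-bh1, Hbb-bh2 and Hbb-bh3) were above the negative-control percentile on 0 arrays.

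Among the rows of the alpha and beta clusters, the 1 that passed the threshold was Hbq1a, a theta globin at the end of the alpha cluster. It measured 5.62, 5.46, 5.46 and 5.37 in Nfix-/- replicates 1 to 4 and 5.21, 5.04, 5.18 and 5.11 in Nfix+/+ replicates 1 to 4. Every Nfix-/- array was above every Nfix+/+ array, as for 16.1% of all clusters. The difference was 0.34 (SE 0.0654, 95% confidence interval 0.19 to 0.49, 1.27-fold, limma adjusted p = 0.00823). Its signal was above the negative-control percentile on 0 arrays. Its near copy Hbq1b, whose promoter window differs at 14 of 300 bases, had a difference of 0.16 (adjusted p = 0.327), and probes of the 2 genes may share signal.

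To set the embryonic against the adult globins apart from any factor that all globin rows of an array share, the mean log2 signal of the 2 Hba-a1/Hba-a2 rows was subtracted, array by array, from the mean of Hbb-bh1, Hbb-y and Hba-x. The adult alpha-globins also follow Hba-x in primitive red cells, so the result does not separate primitive from definitive cells. Since different probes have different brightness, only the change of this value between arrays can be read. It was -3.63, -3.60, -3.90 and -3.58 in Nfix-/- replicates 1 to 4 and -3.47, -3.76, -3.53 and -3.05 in Nfix+/+ replicates 1 to 4. The genotypes overlapped, Nfix-/- replicate 3 was lowest, and Nfix+/+ replicate 4 was highest by a wide margin. The means were -3.68 ± 0.15 and -3.45 ± 0.29 (SD, n = 4 each), and their difference was -0.23 with a standard error of 0.165. Without Nfix+/+ replicate 4 it was -0.09 and without Nfix+/+ replicate 2 it was -0.33. No test was made of this value, since it is a score over chosen genes.

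The embryonic chains did not contribute evenly. Hba-x minus the adult alpha rows was -3.82, -3.96, -4.09 and -3.90 in Nfix-/- replicates 1 to 4 and -3.64, -3.86, -3.67 and -3.21 in Nfix+/+ replicates 1 to 4, a difference of -0.35 (SE 0.149), and 3 Nfix-/- arrays lay below all Nfix+/+ arrays. For Hbb-bh1 and Hbb-y together the difference was -0.16 (SE 0.178), and for Hbb-y and Hba-x, the embryonic rows above the negative controls, it was -0.27 (SE 0.152). Hbb-y minus the adult beta rows was 1.34, 1.45, 1.09 and 1.23 in Nfix-/- replicates 1 to 4 and 1.59, 1.04, 1.67 and 2.04 in Nfix+/+ replicates 1 to 4, a difference of -0.31 (SE 0.220). The largest and the smallest of these 8 values were both Nfix+/+.

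Hbb-y minus Hba-x, a value chosen after the data were seen, was 3.51, 3.58, 3.46 and 3.64 in Nfix-/- replicates 1 to 4 and 3.34, 3.41, 3.42 and 3.39 in Nfix+/+ replicates 1 to 4. The genotypes did not overlap, and the difference was 0.16 (SE 0.0425). It is a description and was not tested. The positive-control median, which also did not overlap between genotypes, had an r of 0.74 with it (exact permutation p = 0.0400) that did not pass over the 45 relations (adjusted p = 0.65), and its part in this value was not tested.

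**Figure D3:**
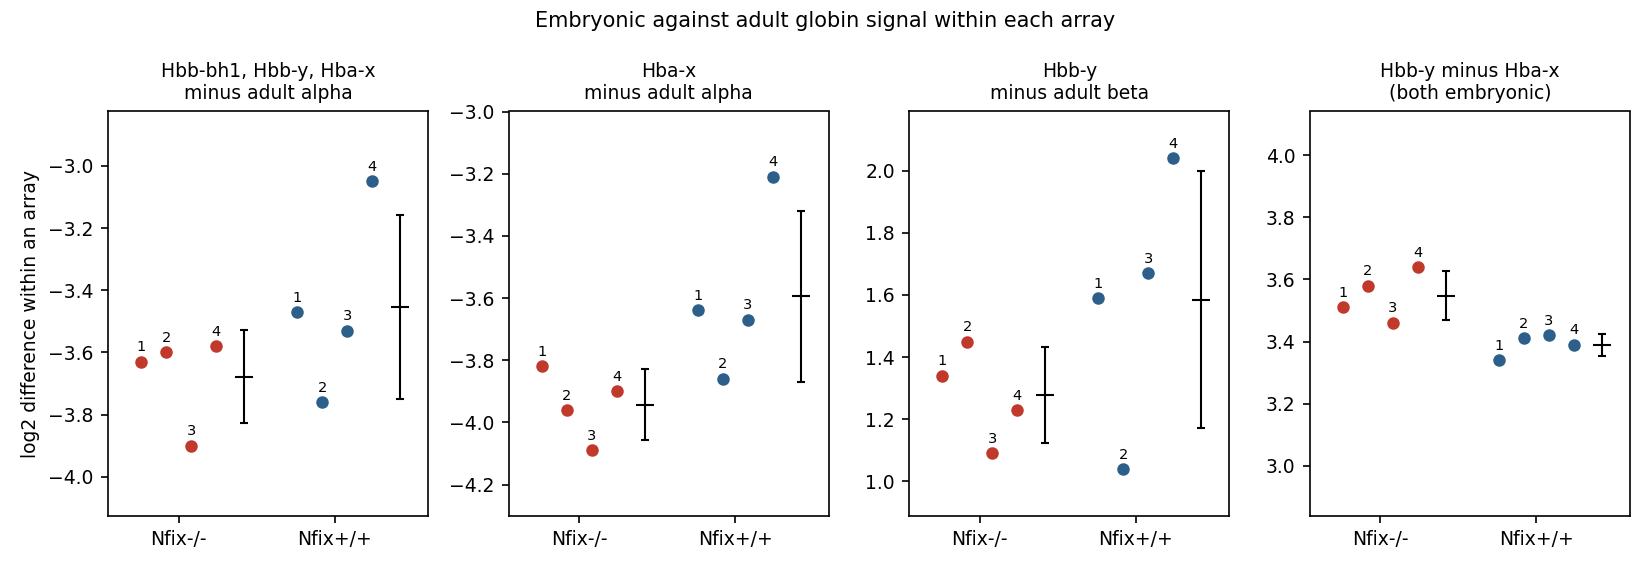
Within-array log2 differences (vertical axes) of all 3 embryonic globins minus adult alpha, Hba-x minus adult alpha, Hbb-y minus adult beta, and Hbb-y minus Hba-x, with each point an array (replicate number above it) and the bar the genotype mean with its SD. In the leftmost panel the Nfix-/- arrays lie between -3.90 and -3.58 and the Nfix+/+ arrays between -3.76 and -3.05, and the genotypes overlap in every panel but Hbb-y minus Hba-x.

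The members were next compared between embryos, to see which of them varied together. Hbb-y and Hba-x had a Pearson's r of 0.84 over the 8 arrays (exact permutation p = 0.0127, adjusted p = 0.0697 over 15 pairs of members) and a Spearman's rho of 0.90 (exact p = 0.00456, adjusted p = 0.0685). Their r was 0.93 without the 2 arrays farthest from the median of Hbb-y and 0.92 after centring each gene on its genotype means. Hbb-bh1 and Hbb-y had an r of 0.86 (exact p = 0.00625, adjusted p = 0.0697) and a rho of 0.74 (exact p = 0.0458, adjusted p = 0.288), with r = 0.68 without the 2 farthest arrays. None of the 15 pairs passed the adjusted threshold.

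The adult alpha row and Slc4a1 had an r of 0.80 (exact permutation p = 0.0139, adjusted p = 0.0697) and a rho of 0.62 (exact p = 0.115, adjusted p = 0.431). That r fell to 0.26 without Nfix+/+ replicates 4 and 1, so it rests on those arrays. Hbb-y and the adult alpha row had an r of -0.15 (exact permutation p = 0.727, adjusted p = 0.839). No relation between these 2 rows was detectable with 8 arrays.

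Pairs with the adult beta rows and Hbb-bh0 were added after the data were seen, 21 pairs in all. Hbb-bh0 followed Hbb-y at r = 0.99 (exact permutation p = 4.96e-05, adjusted p = 0.00104), with rho = 0.98 and r = 0.89 without the 2 farthest arrays. The 2 sequences lie in 1 family, and probes may share signal. Alas2 followed the dimmer adult beta row at r = 0.94 (exact p = 0.00201, adjusted p = 0.0142) and rho = 0.93 (exact p = 0.00223, adjusted p = 0.0156), with r = 0.63 without Nfix+/+ replicates 4 and 3. With the brighter adult beta row Alas2 had r = 0.95 (exact permutation p = 0.00203, adjusted p = 0.0142), rho = 0.67 (adjusted p = 0.289) and r = 0.72 without the same 2 arrays. Alas2 and the adult beta-globins were both lowest in Nfix+/+ replicate 4, and the signal of Alas2 was above the negative-control percentile on 0 arrays. Hba-x and the dimmer adult beta row had an r of -0.76 (exact permutation p = 0.0253) that did not pass the adjusted threshold (adjusted p = 0.0757, and 0.193 for rho).

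**Figure D4:**
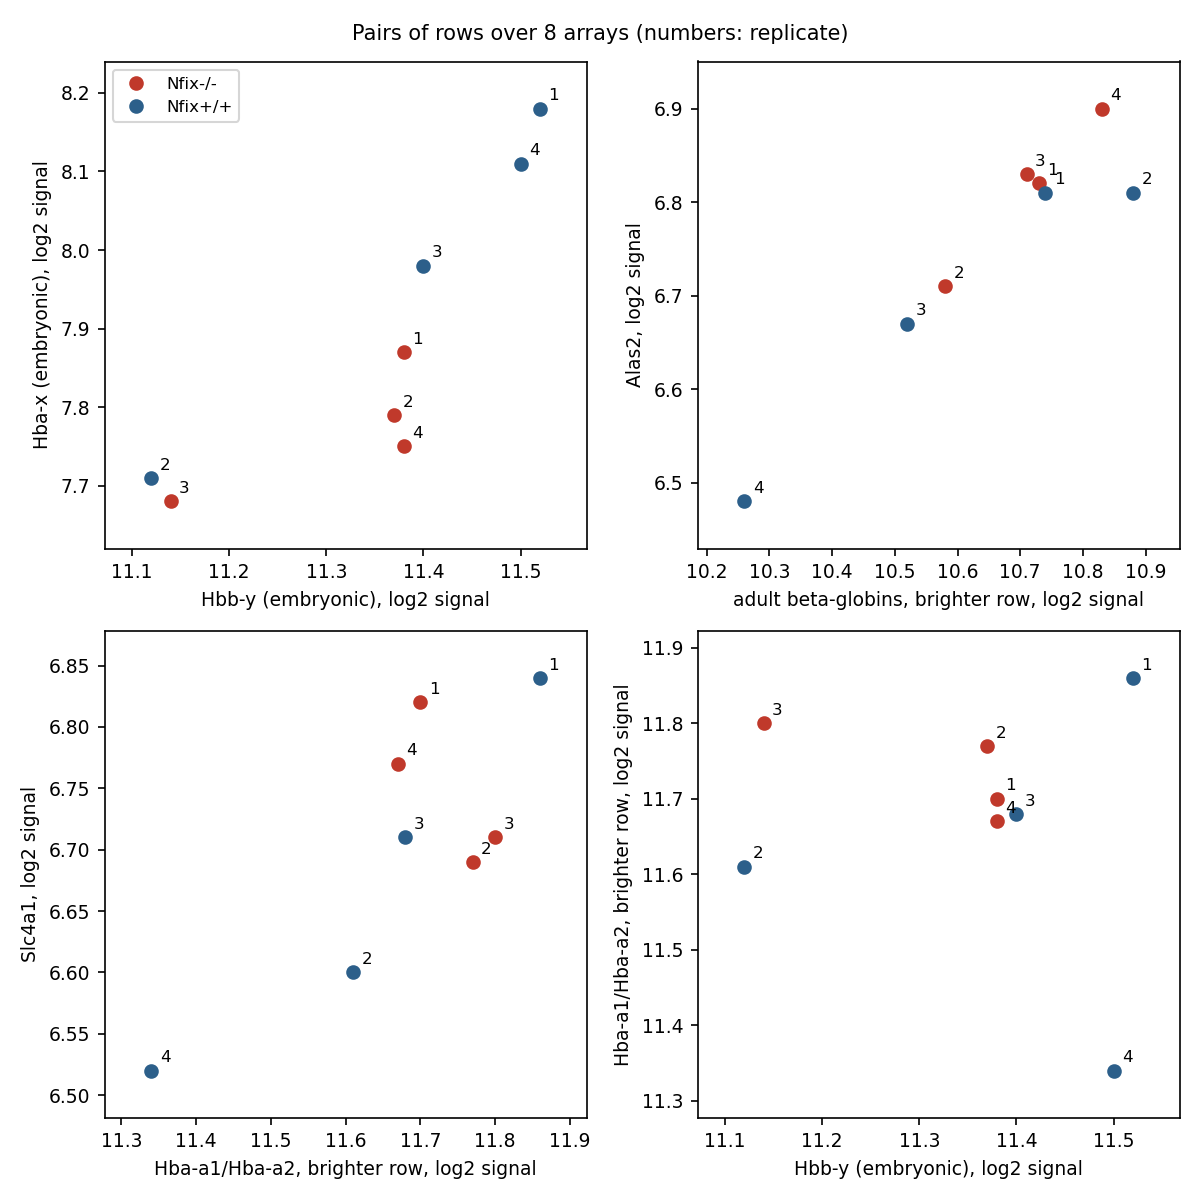
Log2 signal of pairs of globin and red cell rows on the 8 arrays (both axes log2), with each point an array, coloured by genotype. The pairs are Hbb-y with Hba-x (r = 0.84), the brighter adult beta row with Alas2 (r = 0.95), the adult alpha row with Slc4a1 (r = 0.80) and Hbb-y with the adult alpha row (r = -0.15).

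The arrays' own controls were compared with these values. Hbb-y had an r of -0.49 with the negative-control median (exact permutation p = 0.218), which was 0.20 without Nfix+/+ replicate 2, the array with the highest negative controls. Over the same 8 arrays the adult alpha minus the adult beta signal had an r of -0.72 with it (exact permutation p = 0.0326, adjusted p = 0.65 over the 45 relations). Without Nfix+/+ replicate 2, the r of Hbb-y with Hbb-bh1 was 0.76.

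Genes that build and run the red cell were read from lists of the pathway. Together these lists held 87 rows, of which 2 rose (Hbq1a and Fech), 0 fell and 85 did not pass, or 2.3% called against 22.0% of all clusters. At an unadjusted limma p below 0.05 there were 17, beside 36.7% of all clusters. The same 36.7% stands beside each count at an unadjusted p in the lists below. Beside the counts of the methods' test stand 7402 clusters higher and 5813 lower of 65956. The median difference of the 87 rows was 0.05, beside 0.02 over all clusters. The genotypes did not overlap for 13.8% of the rows, against 28.1% of all clusters. Of the 34 rows above the negative-control percentile on at least 4 arrays, 0 rose, whereas 14.1% of all clusters as bright did, and the median of those rows was 0.08 beside 0.09 for all clusters as bright. When the fit was run on bright clusters alone, 2 of the 34 rose (Ldb1, a cofactor of GATA1, by 0.12, limma adjusted p = 0.0341, and Fhdc1 by 0.15, adjusted p = 0.0448), beside 2426 of all 11778. Gata1, Klf1, Nfe2, Hemgn, Epb42, Rhag and Car1 were above the negative-control percentile on 0 arrays. The bright rows include Aldoa, Gpx1, Fth1 and Ldb1, and in whole cord their cell of origin cannot be told. The counts are therefore not a measure of red cells.

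In heme synthesis 1 of 13 rows rose and 0 fell. Fech, ferrochelatase, which inserts iron into the porphyrin ring at the last step, was at 7.32, 7.33, 7.39 and 7.37 in Nfix-/- replicates 1 to 4 and 7.27, 7.18, 7.19 and 7.08 in Nfix+/+ replicates 1 to 4. Every Nfix-/- array was above every Nfix+/+ array, by a small step, and the difference was 0.17 (SE 0.0518, limma adjusted p = 0.0465). Its signal was above the negative-control percentile on 2 arrays. The call rests on the setting: it was lost when any 1 array other than Nfix+/+ replicate 1 was left out (0.14 to 0.20, adjusted p up to 0.112), and under median scaling, quantile normalization (0.12) and cyclic loess (0.11). With the replicate number as a block its adjusted p was 0.100. Alas1, the housekeeping form of the enzyme that Alas2 provides in red cells, had a difference of 0.13 (limma adjusted p = 0.122), and Urod, uroporphyrinogen decarboxylase, one of 0.10 (adjusted p = 0.188).

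Of 10 rows for iron uptake and store 0 passed in limma, 4 had an unadjusted p below 0.05 and the methods' test called 2. Slc40a1, the iron exporter ferroportin, had a difference of -0.11 (limma adjusted p = 0.0930), and Ireb2, an iron-sensing RNA-binding protein, one of 0.15 (adjusted p = 0.0985). Of 8 rows for heme and globin clearance 0 passed and 0 had an unadjusted p below 0.05, with Slc48a1, a heme transporter, at 0.09 (adjusted p = 0.182) and Hmox2, a heme oxygenase, at 0.09 (adjusted p = 0.201).

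The membrane and skeleton list held 17 rows, of which 0 passed in limma, 5 had an unadjusted p below 0.05 and the methods' test called 0. Dmtn, the actin-bundling protein dematin, had a difference of 0.15 (limma adjusted p = 0.0804) and Sptb, the red cell beta-spectrin, one of 0.17 (adjusted p = 0.0898). Both genes were above the negative-control percentile on 8 arrays. Of 9 rows for red cell enzymes 0 passed and 1 had an unadjusted p below 0.05 (Aldoa, an aldolase of glycolysis, 0.09, limma adjusted p = 0.132), and the methods' test called 1. Gpx1, a glutathione peroxidase, had a difference of 0.06 (adjusted p = 0.364).

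Among 20 rows for erythroid transcription factors and late red cell genes 0 passed in limma, 4 had an unadjusted p below 0.05 and the methods' test called 2. Klf1, the factor that switches on adult beta-globin, had a difference of 0.25 (limma adjusted p = 0.0669) and Hemgn, a nuclear protein of maturing red cells, one of -0.21 (adjusted p = 0.0675). Both rows were above the negative-control percentile on 0 arrays.

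Of the 16 regulators of globin switching, 1 rose and 1 fell. Hdac2, a histone deacetylase of repressor complexes that act on globin genes, rose by 0.20 (limma adjusted p = 0.0214) and was above every Nfix+/+ array on all 4 Nfix-/- arrays. Its call was lost after quantile normalization (0.10, adjusted p = 0.156) and cyclic loess (0.08, adjusted p = 0.219), with the replicate number as a block (adjusted p = 0.0608), and without any 1 of Nfix-/- replicate 3 and Nfix+/+ replicates 1, 3 and 4 (adjusted p up to 0.0594). The 1 that fell was Nfix, the gene targeted, whose row stayed above the negative-control percentile on 8 arrays. Bcl11a, the repressor of embryonic and fetal globin genes, had a difference of 0.06 (adjusted p = 0.445) and Zbtb7a, a second such repressor, one of 0.03. Bcl11a and Zbtb7a are named outside the rule used for the lists, for their known role.

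Globins outside the red cell were also measured. Ngb, the neuronal globin, rose by 0.27 (limma adjusted p = 0.0146) with no overlap between genotypes, but its signal was above the negative-control percentile on 0 arrays. Mb, myoglobin, had a difference of -0.13 (adjusted p = 0.125) and Cygb, cytoglobin, one of 0.11 (adjusted p = 0.137).

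Markers of the cells that come with blood or hold it were measured beside the members. In the endothelium list 3 of 10 rows rose and 0 fell: Cdh5, the vascular cadherin (0.27, limma adjusted p = 0.00812), Emcn, endomucin (0.28, adjusted p = 0.0115), and Sox18, a vessel transcription factor (0.29, adjusted p = 0.0443). Over all clusters 11.5% were called higher, and 14.1% of those above the negative-control percentile on at least 4 arrays. The median difference of the endothelium list was 0.06, beside 0.09 over those bright clusters. Of its 10 rows 7 were positive, and Cldn5 (-0.02), Esam (-0.02) and Flt1 (-0.04) were negative. The mean signal of that list was 7.71 to 7.86 on the Nfix-/- arrays and 7.62 to 7.73 on the Nfix+/+ arrays. In the meninges and fibroblast list 3 of 8 rows rose (Foxc1 by 0.34, Lum by 0.37 and Col3a1 by 0.18), with list means of 8.50 to 8.63 and 8.35 to 8.48, and in the macrophage and microglia list 1 of 9 rose (C1qc, by 0.24), with list means of 6.67 to 6.73 and 6.49 to 6.67. Quantile normalization lowered Cdh5 to 0.16 (limma adjusted p = 0.0742) and Col3a1 to 0.06 (adjusted p = 0.532), where cyclic loess gave Col3a1 0.07 (adjusted p = 0.401). Sox18 and C1qc did not pass under quantile normalization (adjusted p = 0.141 and 0.102), median scaling (0.0632 and 0.0627) or cyclic loess (0.105 and 0.0508), nor Sox18 by the methods' test (0.0775). The calls of Sox18, Col3a1 and C1qc were also lost when any of 7, 6 and 5 of the 8 arrays was left out, with adjusted p up to 0.112, 0.0992 and 0.0843, whereas those of Cdh5, Emcn, Foxc1 and Lum held without each array in turn. Emcn and C1qc were above the negative-control percentile on 0 arrays, Lum on 2, Foxc1 on 5 and Sox18 on 6. Cdh5 and Col3a1 were above it on 8. The list means of endothelium and of macrophages overlapped between genotypes and those of the meninges did not. This was not particular to the meninges. The neuron list (10.96 to 11.05 on the Nfix-/- arrays, 10.87 to 10.93 on the Nfix+/+ arrays) did not overlap either. Nor did heme synthesis (7.34 to 7.40 and 7.26 to 7.33) or iron uptake and store (7.83 to 7.86 and 7.74 to 7.82). The median difference of the meninges list was 0.13, beside 0.09 over the bright clusters. The part of these cells in the red cell rows was not tested.

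Of 8 megakaryocyte and platelet rows 0 passed in limma, 1 had an unadjusted p below 0.05 and 7 were above the negative-control percentile on 0 arrays, with list means of 6.42 to 6.55 on the Nfix-/- arrays and 6.30 to 6.58 on the Nfix+/+ arrays. All 9 leukocyte rows were above it on 0 arrays, with Cd3e at a difference of 0.23 (limma adjusted p = 0.0348) and Cd79a at -0.33 (adjusted p = 0.0129). The Cd3e call was lost in 7 of 8 fits that left out an array, under median scaling (adjusted p = 0.0545) and quantile normalization (0.0635) and by the methods' test. The list means of the leukocyte rows were 4.89 to 5.14 and 4.93 to 5.03. In the pericyte and smooth muscle list 0 of 7 rows passed and 2 had an unadjusted p below 0.05 (Acta2, 0.53, limma adjusted p = 0.0606, and Rgs5, 0.15, adjusted p = 0.127), with list means of 7.41 to 7.57 and 7.28 to 7.45. The leukocyte rows thus give no measured level of white cells on these arrays.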

How the data were processed

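The authors hybridised RNA from each cord to 1 array, and, as their methods state, made gene-level values by SST-RMA, a form of robust multi-array averaging, in the Affymetrix Expression Console, with annotation on mm10. The deposited values are log2 signals, 1 per transcript cluster and array. They were used without further scaling. Of 72688 rows, 6732 control rows were left out of the tests, and rows were named through the platform annotation (30646 rows with 1 symbol, 2168 with several, 33142 with none).

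The genotype fit used limma's lmFit and eBayes (version 3.58.1, run under R 4.3.3, 8.44 total degrees of freedom) and Benjamini-Hochberg adjustment over all clusters. Single rows were also given exact permutation tests and correlations exact permutation p-values over 40320 pairings, with SciPy 1.17.1. The limma step was tested on simulated data. The number of arrays, 8, limits the precision. Replicate numbers are not known to pair the arrays, and the fit is unpaired, as in the methods. Deviations of same-numbered arrays correlated at 0.47, -0.15, 0.04 and -0.08. Those of differently numbered arrays ran from -0.63 (Nfix-/- replicate 1 with Nfix+/+ replicate 2) to 0.66 (Nfix-/- replicate 4 with Nfix+/+ replicate 2). These values cannot settle whether arrays shared a litter or a run, since neither is labelled.

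Alternatives were the methods' unpaired test, trended and robust priors, array weights, cyclic loess, quantile normalization, median scaling, leaving out dim rows or rows with no symbol, a replicate block, a Y-linked covariate and leaving out each array. Genes named were all rows naming a member and, of each list, the up to 3 with the lowest p (2 where none passed) and each that passed. The members and lists were chosen with earlier results of these data known. Some listed genes were not analysed here.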

Additional observations from a re-analysis of the deposited data

Results flagged for a closer look

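In each of 120 groups of 4 arrays, 1 per genotype and result, the most extreme array was compared with the nearest of the others. In 10 groups its gap was larger, relative to the group's range, than Dixon's 95% critical value, and chance alone flags about 1 in 20 groups. Hbb-y was 11.14 in Nfix-/- replicate 3, with the other Nfix-/- arrays at 11.37 to 11.38. On the same array Hbb-bh0 was 8.20 (8.46 to 8.50 on the others) and the embryonic minus adult globin signal was -3.90 (-3.63 to -3.58 on the others). Nfix+/+ replicate 2, the array with the highest negative controls, had an adult alpha minus adult beta signal of 1.49 (1.86 to 1.92 on the others), and on it Urod was 6.90 (6.99 or more), Gp6, a platelet receptor, 4.26 (4.52 to 4.57), Cd3e, a T cell marker, 5.16 (5.25 to 5.26) and Hes5, a neural progenitor factor, 8.06 (8.14 to 8.15). On Nfix-/- replicate 4 Slc48a1 was 8.70 (8.78 to 8.79) and Dmtn 8.20 (8.29 to 8.30).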

How the results depend on the processing

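The count of 0 member rows called was 1 with array weights and 0 to 1 with each array left out, and that row was Hba-x (-0.30 with weights, -0.32 without Nfix+/+ replicate 2). With each array left out the Hba-x difference ran from -0.32 to -0.16, with a limma adjusted p up to 0.295. The difference of Hbb-bh1 turned to 0.0121 with median scaling, 0.0088 with quantile normalization and 0.0069 with cyclic loess, and ran from -0.162 to 0.0922 with each array left out. The brighter Hba-a1/Hba-a2 row turned to -0.0143 with quantile normalization and -0.0176 with cyclic loess, and the brighter adult beta row to -0.0067 with cyclic loess. The embryonic minus adult difference (-0.23) kept its sign in all 17 settings run, from -0.33 to -0.09 with each array left out. Median scaling and the replicate block could not change this difference, and some settings were scores that share rows with it. The count of settings is therefore not a measure of how firm the sign is. The 2 of 87 list rows called became 7 with the methods' test, 5 with trended and robust priors, 4 with array weights, 1 with median scaling, 1 with quantile normalization, 4 with cyclic loess and 6 over named rows only, and 1 to 3 with each array left out. The 1351 clusters called at both thresholds were 11 among bright rows only, 397 over named rows only and 1280 to 1536 with each array left out. Of 15 member pairs, 0 correlated past the adjusted threshold, against 2 with median scaling, 1 with quantile normalization, 1 with cyclic loess and 0 to 1 with each array left out, alternatives added after seeing the data. The cause of these shifts was not tested.

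With the replicate number as a block, 510 clusters were higher and 820 lower, 0 member rows passed, Hba-x had an adjusted limma p of 0.139, and the embryonic minus adult difference was -0.23 (SE 0.149). The numbers are not known to pair the arrays. Hbb-bh1, Hbb-bh2, Hbb-bh3, Hbq1a, Hbq1b, Alas2 and Slc4a1 were above the negative-control percentile on 0 arrays. So were rows named from the lists, such as Slc40a1, Urod and Mb. This limits what can be read of all these genes.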

Other observations

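The genes whose pattern over the 8 arrays was most like the mean of the standardised member rows were Gm22210 (r = 0.96), Hoxb8 (r = 0.96), Gm18859, Gm7286, Gm4335, Gm6568, Gm3200, Kcnip3 (r = 0.93), Gm7251 and Gm2445 (r = 0.92), among 8836 symbols with a row above the negative controls. All rows naming a gene of the alpha or beta globin clusters, Alas2 or Slc4a1 were left out before this ranking, so none of them could appear. None of these 10 is among the other genes of the red cell lists. Over 8 arrays, 29 of the 8836 symbols had an r above 0.9, and all share the same arrays and controls, so the order is a description. Hoxb8, a patterning gene of the trunk, ranged over only 0.13 on the log2 scale. The symbol nearest to Hbb-y alone was Hbb-bh0 (r = 0.99), followed by Gm15696 (r = 0.94), Snora68 (r = 0.93) and Ksr2 (r = 0.93). Atpif1, an inhibitor of the mitochondrial ATP synthase that is needed for heme synthesis in zebrafish, was the fifth (r = 0.92, range 0.42). Of 8838 symbols, 11 had an r above 0.9 with Hbb-y, and Atpif1 is named here for its known role.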
